A study of Rattus norvegicus with 6 samples.

Results

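The genes described here encode enzymes that make ceramide and pass it on to its first products in the rat cornea. They were chosen by gene symbol, and all 10 (Sptlc1, Sptlc2, Cers2, Cers3, Cers4, Cers5, Cers6, Degs1, Ugcg and Cerk) were found among the 17771 genes of the count table. The samples were corneas of Wistar recipients into which SD donor corneas had been transplanted. One group was injected intraperitoneally every day with resveratrol, a plant polyphenol, and the other with saline, called control, up to day 7 after surgery, the time the samples are labelled with. Each group has 3 libraries of bulk RNA, and both groups carry the allograft, so ungrafted cornea is no part of the comparison. The labels give no dose, sex or age, and do not say whether a library is one cornea or a pool or whether the libraries came from separate animals. P-values therefore measure only the spread between these libraries, which may be technical. The list was proposed with the resveratrol and control results known, so differences between the groups in these genes are given as a description, and p-values as the output of the fit over all genes.

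Sphingolipids are built on a long-chain base. Serine palmitoyltransferase makes it in the endoplasmic reticulum from serine and palmitoyl-CoA, which is the committed step of the route. Ceramide synthases then attach a fatty acid, each with its own preference for chain length, and a desaturase adds the double bond that turns dihydroceramide into ceramide. Ceramide is glucosylated, phosphorylated or turned into sphingomyelin, and in stratified epithelia ceramides with very long chains are part of the permeability barrier.

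Total counts per library were 35068936 to 37460756, so depth differed little between libraries. By the chi-square of their counts over degrees of freedom, control 3 was nearest to control 2 (38.8). It was nearer to resveratrol 2 (41) and resveratrol 3 (44.7) than to control 1 (56.8). Resveratrol 1 was further from resveratrol 2 (54.2) and 3 (59.1) than those were from each other (32.7). Keratin 12, the keratin of corneal epithelium, had 31838 CPM or more in every library. Corneal epithelium markers summed to 85855 to 100388 CPM in resveratrol and to 86712 to 95997 CPM in control, and overlapped. Several other cell types did not keep the same level. T cell markers summed to 26.5 to 35.8 CPM in resveratrol against 39.7 to 73.9 CPM in control, with a lower mean in resveratrol in 8 of 8 tested genes. Dendritic cell markers summed to 21.2 to 23.8 CPM in resveratrol against 33.9 to 55.3 CPM in control (6 of 6 lower), and neutrophil markers to 170 to 208 CPM in resveratrol against 232 to 597 CPM in control (5 of 5 lower). S100a8 and S100a9 held most of the neutrophil sum, and S100a9 was the only 1 of the 5 genes without overlap. Blood endothelial markers summed to 322 to 409 CPM in resveratrol against 492 to 668 CPM in control (8 of 8 lower), and keratocyte and fibroblast markers to 9048 to 12655 CPM in resveratrol against 13411 to 19268 CPM in control (8 of 8 lower). Col1a1 and Col1a2 held most of the keratocyte and fibroblast sum, and only they and Thy1 did not overlap. Kera, Lum, Dcn, Pdgfra and Aldh1a1 overlapped, with log2 fold changes of -0.19, -0.26, -0.071, -0.060 and -0.015. Schwann cell markers summed to 50.9 to 61.8 CPM in resveratrol against 77.7 to 101 CPM in control, mostly through Ncam1 (3 of 5 lower). None of these 6 sums overlapped between the groups. The macrophage and monocyte sum overlapped, at 368 to 547 CPM in resveratrol and 488 to 943 CPM in control (8 of 10 lower, 5 of them without overlap, median log2 fold change -0.74). Without Lyz2, left out after the values were seen, that sum was 245 to 304 CPM in resveratrol against 330 to 439 CPM in control and did not overlap. Markers of proliferating cells overlapped, at 252 to 415 CPM in resveratrol and 148 to 322 CPM in control (5 of 5 higher). The corneal endothelium sum overlapped as well (821 to 1393 CPM in resveratrol, 820 to 1021 CPM in control). Of its 6 genes, 3 were lower without overlap. Lymphatic endothelium (134 to 193 CPM in resveratrol, 133 to 188 CPM in control) and mast cell sums (33.5 to 42.8 and 24.4 to 45.1 CPM) overlapped. So did the B and plasma cell sum (0.737 to 1.16 and 0.680 to 2.47 CPM). No listed marker was at 0 in all libraries. The part of these differences in the values below was not tested, and in bulk RNA fewer cells of a type cannot be told apart from less RNA per cell.

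Per transcript length, 8 genes averaged 13.6 to 30.3 FPKM and the other two were lower. FPKM, the authors' value scaled for gene length and depth, averaged over all 6 libraries, was highest for Cers2 (30.3), followed by Cers5 (27.4), Sptlc1 (25.1), Sptlc2 (22.7), Cerk (22), Ugcg (20.7), Degs1 (17.5) and Cers3 (13.6). Cers6 (2.72) and Cers4 (1.25) were the lowest. The ranges over libraries overlapped between every pair of neighbours in this order from Cers2 down to Degs1. They did not overlap between Degs1 and Cers3, between Cers3 and Cers6 or between Cers6 and Cers4. Within each library Cers2 was above Cers5, Cers5 above Sptlc1 and Sptlc1 above Sptlc2, in 6 of 6 libraries, whereas Cerk lay above Ugcg in the 3 resveratrol libraries alone.

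**Figure D1:**
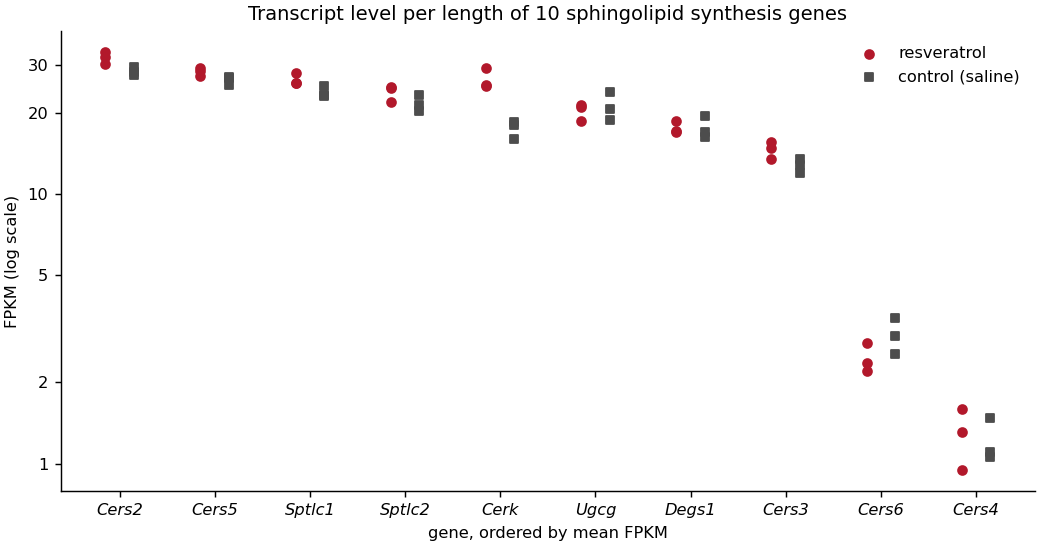
FPKM of the 10 genes (log axis) in each library, with resveratrol libraries as red circles and control libraries as dark grey squares, ordered by mean FPKM. Cers6 and Cers4 lie far below the other genes, and Cerk is the gene whose groups stand most apart, at 25 to 29.2 FPKM in resveratrol and 16.0 to 18.4 FPKM in control.

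Among the 10 genes, the difference stood out for Cerk, which encodes the kinase that phosphorylates ceramide to ceramide-1-phosphate, an activator of cytosolic phospholipase A2. Cerk had 105, 103 and 118 CPM in resveratrol libraries 1, 2 and 3, against 76.5, 66.3 and 74.7 CPM in control libraries 1, 2 and 3 (CPM here and below is scaled with TMM factors). Every resveratrol library lay above every control library, and the gap between the groups was larger than the SD of either one. Its mean was 109 ± 7.85 CPM in resveratrol and 72.5 ± 5.47 CPM in control (SD, n = 3 each), a 1.5-fold difference. The log2 fold change, resveratrol over control, was 0.58 ± 0.089 (moderated standard error), with a 95% interval of 0.37 to 0.79.

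Cerk did not pass the threshold of 0.05 in edgeR's quasi-likelihood test (adjusted p = 0.10), in which 0 of 14213 genes passed, while 2782 genes, 19.6%, had an unadjusted p under 0.05. It was the only one of the 10 genes that DESeq2 called (adjusted p = 2.89e-05), where DESeq2 called 6.87% of the 14666 genes it gave an adjusted p, namely 2.23% higher and 4.64% lower in resveratrol. Over all genes, edgeR passed 21 without control 3 and 1 without resveratrol 2, none of them among the 10 genes, and DESeq2 called 390 without control 2, 530 without resveratrol 1, 623 without control 1 and 642 without resveratrol 2. By edgeR's p Cerk ranked 28 of 14213 genes. The list was chosen with this contrast in view, so rank and call describe Cerk and do not test it. The marker sums given above, lower in resveratrol for several cell types, are from the same libraries, and their part in the Cerk difference was not tested. In DESeq2 the call held when any single library was left out (adjusted p between 0.000196 and 0.00188). Labels of replicate 1 carry the ending Sep and those of replicates 2 and 3 the ending Oct in both groups, and the labels do not explain it. In the Oct libraries alone the log2 fold change of Cerk was 0.65 (edgeR adjusted p = 0.238), and the Sep libraries, with 105 CPM in resveratrol and 76.5 CPM in control, allow no test.

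**Figure D2:**
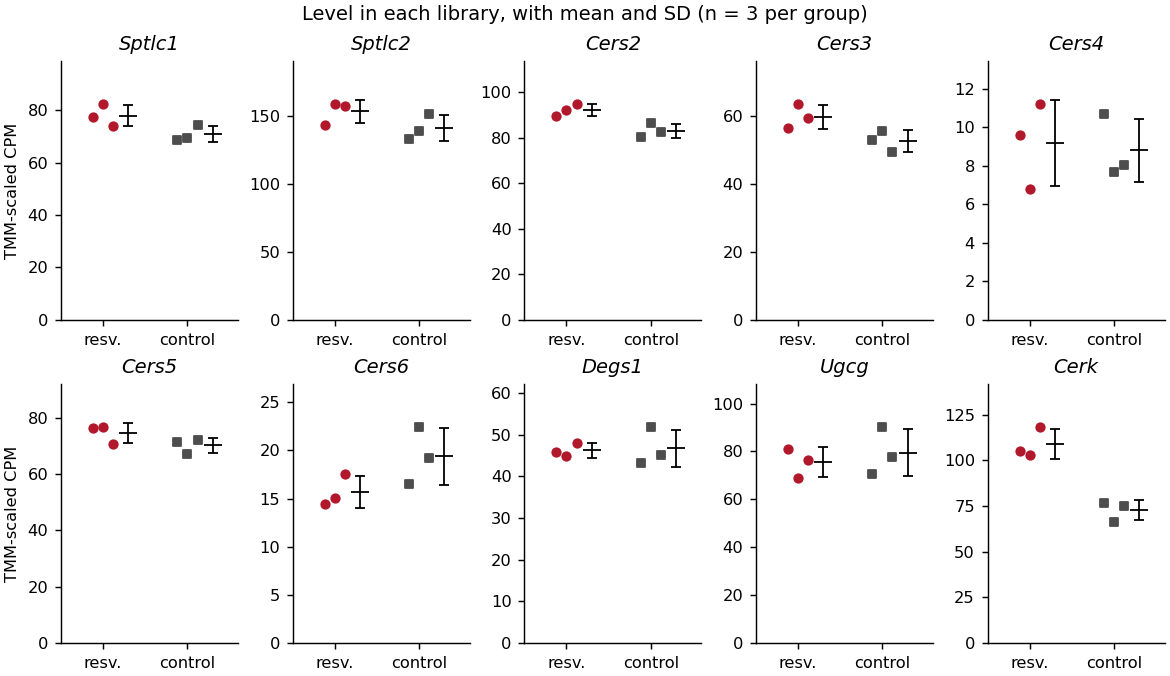
TMM-scaled CPM of the 10 genes in each library, with resveratrol at the left and control at the right of each panel, and the mean with SD (n = 3) beside the points. The axes start at 0 and differ between panels. Cerk is the panel in which the groups are widest apart relative to their spread, with 103 to 118 CPM in resveratrol and 66.3 to 76.5 CPM in control.

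Promoter sequence was available from RefSeq for 9 of the 10 genes, and 4 are shown: Cerk for its difference, Sptlc2 as the most counted gene, Cers3 as the ceramide synthase known from epidermis, and Cers6 as the gene with the lowest fold change. Each line gives the 250 bases before the annotated start, read 5′ to 3′ on the gene's strand in the assembly GRCr8, which is not the build named for the counts. Capitals mark matches, on either strand, to 4 motifs searched for. The GC box was spelled GGGCGG, while the letters CCAAT stood for the box of that name. The E-box was searched as CACGTG, with the TATA box searched as TATAAA.
Cerk, GRCr8 chr7:119148571-119148820, minus strand: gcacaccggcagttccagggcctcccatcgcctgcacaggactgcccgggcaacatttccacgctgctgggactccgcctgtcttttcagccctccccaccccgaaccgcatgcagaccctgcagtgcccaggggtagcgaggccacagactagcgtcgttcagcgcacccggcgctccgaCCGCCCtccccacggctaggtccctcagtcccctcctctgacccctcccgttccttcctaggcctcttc
Sptlc2, GRCr8 chr6:112762471-112762720, minus strand: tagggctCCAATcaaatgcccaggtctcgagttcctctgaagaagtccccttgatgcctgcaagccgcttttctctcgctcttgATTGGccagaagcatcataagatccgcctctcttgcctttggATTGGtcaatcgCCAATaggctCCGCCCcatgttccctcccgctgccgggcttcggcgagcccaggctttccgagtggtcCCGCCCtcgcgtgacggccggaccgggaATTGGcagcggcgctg
Cers3, GRCr8 chr1:129748322-129748571, plus strand: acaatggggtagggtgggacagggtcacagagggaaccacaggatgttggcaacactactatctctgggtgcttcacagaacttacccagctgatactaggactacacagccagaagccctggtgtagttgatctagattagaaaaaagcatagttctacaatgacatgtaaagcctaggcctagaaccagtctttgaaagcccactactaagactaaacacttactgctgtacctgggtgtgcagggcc
Cers6, GRCr8 chr3:74038611-74038860, plus strand: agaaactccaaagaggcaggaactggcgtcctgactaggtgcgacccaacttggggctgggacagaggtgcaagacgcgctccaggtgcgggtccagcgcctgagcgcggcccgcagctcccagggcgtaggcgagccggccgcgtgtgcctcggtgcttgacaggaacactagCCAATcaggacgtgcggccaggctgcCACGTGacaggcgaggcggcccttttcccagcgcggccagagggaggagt
The Cerk window holds 1 GC box and no other of these motifs, and 67.6% of its bases are G or C. The Sptlc2 window holds 5 CCAAT boxes and 2 GC boxes, Cers6 holds the E-box and a CCAAT box, and Cers3, at 48.0% G or C, holds none. Over the 9 windows, 7 held a GC box, 3 a CCAAT box, 1 an E-box and 0 a TATA box. Of 33469 rat promoter windows of the same length, 30.5% held a GC box, 34.0% a CCAAT box, 5.59% an E-box and 12.9% a TATA box. The median G or C content of all windows was 51.2%. These matches describe the letters in the window and no binding was measured.

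Serine palmitoyltransferase is a complex of the Sptlc1 product and, for its catalytic part, the Sptlc2 product. Sptlc1 had 77.4, 82.3 and 74.1 CPM in resveratrol against 68.8, 69.4 and 74.5 CPM in control. Sptlc2 had 144, 159 and 158 CPM in resveratrol against 133, 139 and 152 CPM in control. In both genes control 3 was the highest control library and the groups overlapped. The log2 fold changes were 0.14 ± 0.075 for Sptlc1 and 0.12 ± 0.081 for Sptlc2, with edgeR adjusted p-values of 0.361 and 0.453. Their 95% intervals, -0.040 to 0.31 and -0.067 to 0.31, include 0. The ratio of Sptlc1 to Sptlc2 FPKM was 1.12 ± 0.0758 in resveratrol and 1.10 ± 0.0327 in control (SD, n = 3 each), and the groups overlapped.

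The ceramide synthases differ in the acyl chains they attach. Cers2, which makes very-long-chain ceramides, had 89.6, 92.2 and 94.7 CPM in resveratrol against 80.4, 86.3 and 82.3 CPM in control. Cers3, the ultra-long-chain enzyme of epidermis and testis, had 56.6, 63.6 and 59.6 CPM in resveratrol against 53.1, 55.8 and 49.4 CPM in control. In both genes all resveratrol libraries lay above all control libraries, by a narrow margin in Cers3 (56.6 CPM in the lowest resveratrol library, 55.8 CPM in the highest control library). The log2 fold changes were 0.15 ± 0.068 for Cers2 and 0.18 ± 0.083 for Cers3, and neither passed (edgeR adjusted p of 0.278 and 0.269). Cers2 overlaps Setdb1 in the RefSeq table, and the strand setting of the counts is unknown. Reads from the stretch the pair shares may therefore not be told apart, and the Cers2 level is uncertain to that extent.

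Cers5 and Cers6 both prefer palmitoyl chains, and their fold changes had opposite signs. Cers5 had 76.6, 76.7 and 70.6 CPM in resveratrol against 71.5, 67.1 and 72.1 CPM in control, a log2 fold change of 0.088 ± 0.073 (edgeR adjusted p = 0.538). RefSeq lists a Cers5 pseudogene, and no source used here says how reads matching both were treated, so this level is uncertain. Cers6 had 14.4, 15.1 and 17.6 CPM in resveratrol against 16.5, 22.4 and 19.2 CPM in control. Its fold change was the lowest of the 10 genes (log2 -0.30 ± 0.14, edgeR adjusted p = 0.302), and the groups overlapped because resveratrol 3 lay above control 1. Without control 2, its highest library, the log2 fold change was -0.18. Cers4, which prefers stearoyl and longer chains, was low and variable, with 9.61, 6.79 and 11.2 CPM in resveratrol against 10.7, 7.67 and 8.02 CPM in control. Its SD was 24.4% of the mean in resveratrol and 19.0% in control, and the 95% interval of its log2 fold change, -0.45 to 0.59, is the widest of the 10 genes.

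The composition of the family was similar in all libraries. Of the summed ceramide synthase FPKM, Cers2 held 40.6% ± 1.02 in resveratrol and 39.7% ± 0.997 in control (SD, n = 3 each). Cers5 held 36.1% ± 1.70 in resveratrol and 36.8% ± 1.86 in control, and Cers3 held 18.5% ± 0.806 in resveratrol and 17.7% ± 0.918 in control. Cers4 held 1.63% ± 0.412 in resveratrol and 1.69% ± 0.332 in control. Cers6 was the one gene whose share did not overlap, at 2.90%, 2.94% and 3.50% in resveratrol against 3.56%, 4.74% and 4.15% in control, a difference of -1.04 percentage points. The gap was narrow (3.50% against 3.56%), and the CPM of Cers6 itself overlapped. The summed level of the 5 genes, by which each share is divided, was 75.8, 80.3 and 80.2 FPKM in resveratrol against 71.2, 72.9 and 71.4 FPKM in control, also without overlap. By CPM the groups did not overlap in 26.5% of all genes tested. No such background was computed for shares, which depend on one another, so 1 share of 5 is only a description. For 3 against 3 libraries, the smallest p that an exact permutation test allows is 0.1 (two-sided), so none was made on these shares. The symbol Cers1 was not found among the genes of the count table, so no share is given for it.

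**Figure D3:**
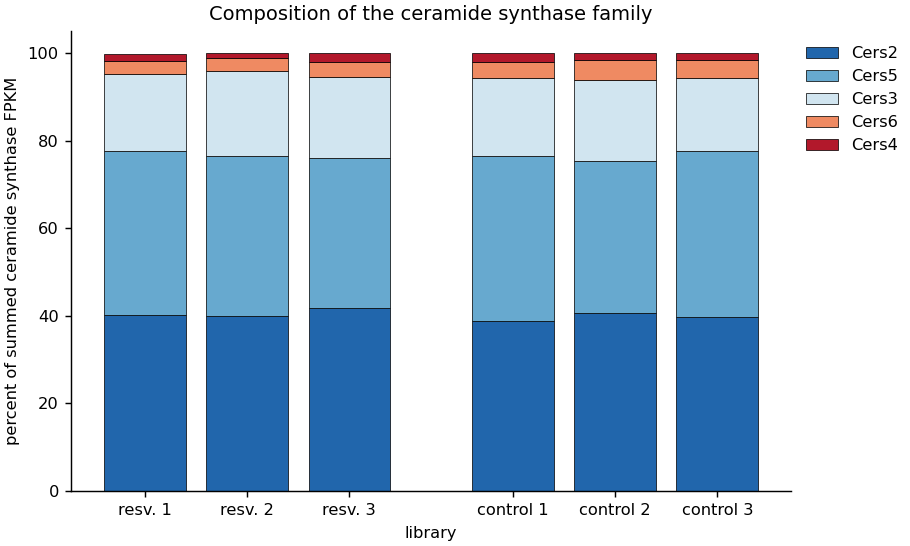
Percent of the summed ceramide synthase FPKM held by each of 5 genes, with 1 bar per library, resveratrol libraries at the left and control libraries at the right. The Cers6 band is narrower in the resveratrol bars, at 2.90% to 3.50%, than in the control bars, at 3.56% to 4.74%, and the other bands overlap between the groups.

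Degs1, the desaturase that completes ceramide, had 45.8, 44.8 and 48.1 CPM in resveratrol against 43.3, 51.8 and 45.2 CPM in control. Control 2 was its highest library and control 1 its lowest, so the resveratrol values lay within the control range. The log2 fold change was -0.017 ± 0.091, with a 95% interval of -0.23 to 0.20. The RefSeq table lists 2 gene copies of similar name, Degs1l1 and Degs1l2, and reads shared between copies could have been counted in more than one way, so the Degs1 level is uncertain.

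Ugcg, which glucosylates ceramide and so opens the route to the gangliosides, had 81.1, 69.0 and 76.6 CPM in resveratrol against 70.6, 90.1 and 77.7 CPM in control. The groups overlapped, with control 2 the highest library, and the log2 fold change was -0.072 ± 0.11 (95% interval -0.33 to 0.18, edgeR adjusted p = 0.749). Cerk and Ugcg both use ceramide, and their FPKM ratio was compared after their values were seen. The ratio of Cerk to Ugcg was 1.18, 1.36 and 1.39 in resveratrol against 0.985, 0.668 and 0.873 in control. All resveratrol libraries lay above 1 and all control libraries below it. Because Ugcg overlapped, this ratio is no result separate from that of Cerk, and no background for ratios was computed.

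**Figure D4:**
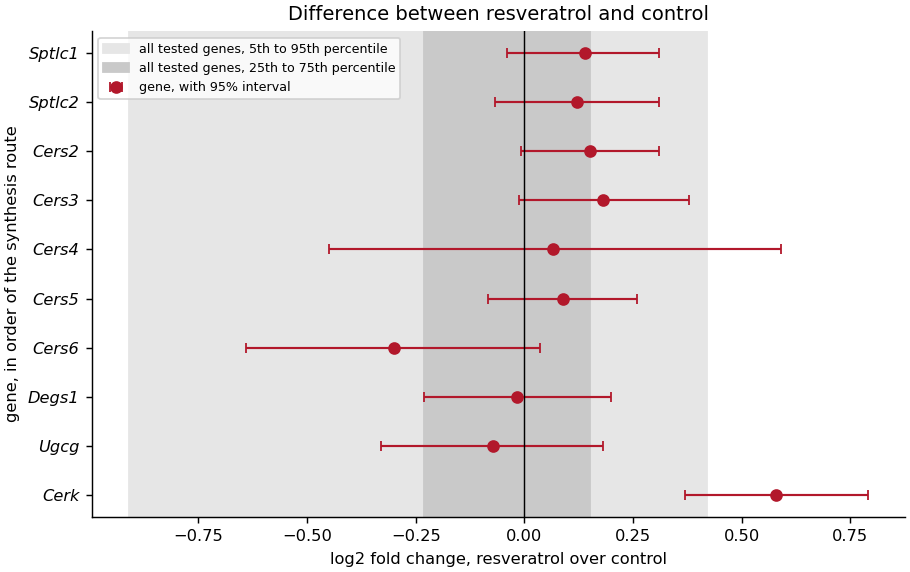
Log2 fold change, resveratrol over control, of the 10 genes in order of the synthesis route, with 95% intervals from moderated standard errors, over the range of all 14213 tested genes (light band, 5th to 95th percentile, -0.91 to 0.42, and dark band, 25th to 75th percentile, -0.23 to 0.15). Cerk, at 0.58, is the one gene beyond the light band and the one whose interval leaves out 0.

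As a set, 7 of the 10 genes had a higher mean in resveratrol and 3 a lower one, where 48.8% of all genes had a higher mean. All 10 passed the filter on low counts. The median log2 fold change was 0.10 over the 10 genes and 0.088 without Cerk, and it was -0.0080 over all genes tested. In 3 genes, Cerk, Cers2 and Cers3, the groups did not overlap, each with resveratrol higher. Over all genes tested, 12.2% showed this in the same direction and 14.4% in the other. At an unadjusted p under 0.05 edgeR gave 1 of the 10, Cerk, against 7.84% of all genes in that direction.

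The genes whose profile over the 6 libraries lay nearest to Cerk were Lpcat3, Mcfd2 and Creld2, out of 9242 other genes with a mean of at least 10 CPM. The root mean square difference of their mean-centred log2 CPM from that of Cerk was 0.044 for Lpcat3, 0.053 for Mcfd2 and 0.054 for Creld2. Lpcat3 had 79.4, 73.0 and 89.3 CPM in resveratrol against 55.0, 51.2 and 55.3 CPM in control, so resveratrol 3 was the highest library and control 2 the lowest, as in Cerk. These genes were picked for a profile like that of Cerk, so the likeness is a description and no evidence of a link.

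The other genes of sphingolipid metabolism were taken as 9 lists by function, of which 83 of 88 symbols were listed in the counts and 75 were tested. In edgeR 0 of the 75 passed, and 6 higher and 8 lower genes had an unadjusted p under 0.05, against 7.84% and 11.7% of all genes. DESeq2 called 5 of them, Sphk1 and Acer3 higher and Gm2a, Hexa and St8sia1 lower in resveratrol. Of all genes, DESeq2 called 2.23% higher and 4.64% lower, 6.87% in all, so 5 of 75 is near the background. It called 2 of the 75 without resveratrol 1 or control 2, and 3 without resveratrol 3 or control 3. The median log2 fold change of the 75 genes was -0.096, and the groups did not overlap in 17 of them, 6 higher and 11 lower. Over all genes the groups did not overlap in 26.5%, namely 12.2% higher and 14.4% lower, so this count is no more than the background.

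Sphk1, which phosphorylates sphingosine to sphingosine-1-phosphate, had 134, 110 and 104 CPM in resveratrol against 73.7, 86.4 and 84.7 CPM in control. The groups were apart, and the log2 fold change was 0.51 ± 0.11 (edgeR adjusted p = 0.121, DESeq2 adjusted p = 0.00569). Leaving out any single library kept the DESeq2 call (adjusted p between 0.00574 and 0.0490). Acer3, an alkaline ceramidase that frees sphingosine from ceramide, had 123, 89.8 and 87.3 CPM in resveratrol against 74.2, 63.9 and 74.9 CPM in control (log2 fold change 0.49 ± 0.14, edgeR adjusted p = 0.156, DESeq2 adjusted p = 0.0333). Resveratrol 1 lay well above the other libraries of Acer3. Its DESeq2 call was lost without resveratrol 1 (adjusted p = 0.111), control 1 (0.0839), control 2 (0.230) or control 3 (0.0573). In the Oct libraries alone the log2 fold changes were 0.33 for Sphk1 and 0.35 for Acer3, smaller than the 0.51 and 0.49 with all libraries.

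The exporter and receptors of sphingosine-1-phosphate had smaller fold changes than Sphk1. Spns2, the exporter, ranged over 409 to 628 CPM in resveratrol and 474 to 658 CPM in control and overlapped (log2 fold change -0.14 ± 0.18). S1pr2, a receptor, had 23.3, 25.8 and 26.5 CPM in resveratrol against 30.9, 30.6 and 33.2 CPM in control, with no overlap (log2 fold change -0.33 ± 0.090, edgeR adjusted p = 0.142, DESeq2 adjusted p = 0.0738). Plpp3, a lipid phosphate phosphatase, differed by -0.11 ± 0.094. Of the 13 tested genes of this list, 2 had an unadjusted p under 0.05 with resveratrol higher and 1 with resveratrol lower, against 7.84% and 11.7% of all genes.

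Lysosomal breakdown of glycosphingolipids had a lower mean in resveratrol in 9 of 12 tested genes, with a median log2 fold change of -0.15. Gm2a, the activator that presents ganglioside GM2 to its hydrolase, had 62.4, 66.8 and 75.1 CPM in resveratrol against 126, 98.0 and 97.1 CPM in control. The groups were apart, and the log2 fold change was -0.65 ± 0.12 (edgeR adjusted p = 0.103, DESeq2 adjusted p = 0.00124). Its DESeq2 call held without any single library (adjusted p between 0.00108 and 0.0213). Hexa, a subunit of that hydrolase, had 93.4, 93.9 and 87.0 CPM in resveratrol against 116, 110 and 105 CPM in control (log2 fold change -0.27 ± 0.073, DESeq2 adjusted p = 0.0481), and the call was lost whichever library was left out (adjusted p between 0.0835 and 0.244). Psap, the precursor of the saposins, had 906, 908 and 884 CPM in resveratrol against 1184, 1062 and 929 CPM in control, with no overlap (log2 fold change -0.23 ± 0.11, and -0.14 without control 1). Macrophage and monocyte markers differed between the groups too, but not all in 1 direction. Of 10, DESeq2 called 4 lower in resveratrol, Cd68 (log2 fold change -0.88), Csf1r (-0.90), C1qa (-0.95) and Aif1 (-1.15), each without overlap and further from 0 than Gm2a. Mrc1 and Cd163 had a higher mean in resveratrol (0.11 each), and these 2, Cd14, C1qb and Lyz2 overlapped. The summed level of the 10 markers was 368 to 547 CPM in resveratrol and 488 to 943 CPM in control, and the part of these cells in the lysosomal values was not tested.

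Among 8 tested genes of glycosphingolipid synthesis 7 had a lower mean in resveratrol. St8sia1, the sialyltransferase that makes ganglioside GD3, had few counts, with 0.246, 0.510 and 0.342 CPM in resveratrol against 0.977, 1.12 and 0.911 CPM in control (log2 fold change -1.44 ± 0.35, DESeq2 adjusted p = 0.0497). Its call was lost without any one of the libraries (adjusted p between 0.0609 and 0.285). B4galt6, which adds galactose to glucosylceramide, was the gene with a higher mean, at 0.39 ± 0.16 on the log2 scale. Its groups overlapped, with 14.4 CPM in resveratrol 2 and 14.5 CPM in control 2 (edgeR adjusted p = 0.249, DESeq2 adjusted p = 0.184). The related B4galt5 and the sialyltransferase St3gal2 overlapped between the groups, at -0.21 ± 0.17 and -0.16 ± 0.13.

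Of 9 tested genes of sphingomyelin synthesis and breakdown, 4 had a higher and 5 a lower mean in resveratrol. Sgms1, the Golgi sphingomyelin synthase, had 133 to 147 CPM in resveratrol and 127 to 155 CPM in control, and Sgms2, the plasma membrane enzyme, had 43.9, 46.2 and 48.0 CPM in resveratrol against 49.3, 63.2 and 58.3 CPM in control. Sgms2 was lower in every resveratrol library (log2 fold change -0.31 ± 0.11, edgeR adjusted p = 0.187, DESeq2 adjusted p = 0.174). Smpdl3b, an acid sphingomyelinase-like enzyme, had 6.50, 6.98 and 8.35 CPM in resveratrol against 8.77, 16.0 and 11.9 CPM in control (log2 fold change -0.75 ± 0.23, edgeR adjusted p = 0.165, DESeq2 adjusted p = 0.0518). Without control 1 DESeq2 called both, with adjusted p-values of 0.0275 for Sgms2 and 0.00316 for Smpdl3b. Without control 2, the highest library of both, the DESeq2 log2 fold changes were -0.21 for Sgms2 (adjusted p = 0.572) and -0.49 for Smpdl3b (adjusted p = 0.334). Smpdl3a overlapped, at -0.14 ± 0.097. The lysosomal ceramidase Asah1 also overlapped (log2 fold change -0.078 ± 0.083), while Naaa, a related acid amidase, had 33.6, 30.6 and 27.0 CPM in resveratrol against 41.8, 34.9 and 39.2 CPM in control (-0.35 ± 0.11, edgeR adjusted p = 0.176).

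None of the tested genes that supply and regulate ceramide synthesis passed in edgeR or DESeq2 over all libraries. Sptssa, a small activating subunit of serine palmitoyltransferase, and the ORMDL inhibitors Ormdl1 and Ormdl3 all overlapped, at 0.14 ± 0.12, 0.17 ± 0.12 and 0.0022 ± 0.089 on the log2 scale. Kdsr, the reductase that follows serine palmitoyltransferase, differed by -0.096 ± 0.099. Tecr, the last enzyme of fatty acid elongation, had 232, 216 and 214 CPM in resveratrol against 199, 183 and 201 CPM in control, with no overlap (log2 fold change 0.18 ± 0.074, edgeR adjusted p = 0.252). Fa2h, which hydroxylates the fatty acids of sphingolipids, had 1.99, 1.64 and 1.21 CPM in resveratrol against 0.776, 1.58 and 1.05 CPM in control and overlapped (log2 fold change 0.51 ± 0.34, edgeR adjusted p = 0.462), and its value was 0.30 without control 1 and 0.82 without control 2. Degs2, a desaturase and hydroxylase related to Degs1 and named after its values were seen, had 2.21, 6.20 and 1.84 CPM in resveratrol against 4.25, 6.34 and 3.59 CPM in control and overlapped too (-0.47 ± 0.46, edgeR adjusted p = 0.617). Among the DESeq2 fits, Degs2 was called, lower in resveratrol, only without resveratrol 2, its highest resveratrol library. Of the transfer genes, Gltp, which carries glycolipids, was the most counted, with 572 to 774 CPM in resveratrol and 514 to 655 CPM in control. Vapa, a membrane anchor for lipid transfer proteins, did not overlap, with a higher mean in resveratrol (log2 fold change 0.11 ± 0.066), and Osbp, a sterol transfer protein, overlapped (0.14 ± 0.078).

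The list of epidermal acylceramide genes, which build the barrier lipid of skin, had lower means in 8 of 10 tested genes, with a median log2 fold change of -0.24, and 0 passed in edgeR or DESeq2. Sdr9c7, an enzyme of the corneocyte lipid envelope, had 1.83, 2.20 and 1.63 CPM in resveratrol against 4.71, 2.80 and 2.14 CPM in control and overlapped (log2 fold change -0.77 ± 0.31, edgeR adjusted p = 0.257), and the log2 fold change was -0.38 without control 1. Elovl1, which elongates saturated acyl chains, and the fatty acid transporter Slc27a4 both overlapped, with log2 fold changes of -0.032 ± 0.14 and 0.083 ± 0.072. Abhd5, a lipase cofactor, had 100, 108 and 96.2 CPM in resveratrol against 88.4, 89.8 and 90.4 CPM in control, with no overlap (0.18 ± 0.072, edgeR adjusted p = 0.239). Markers of cornified or conjunctival epithelium summed to 7936 to 11789 CPM in resveratrol and 9514 to 11940 CPM in control, and overlapped.

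**Figure D5:**
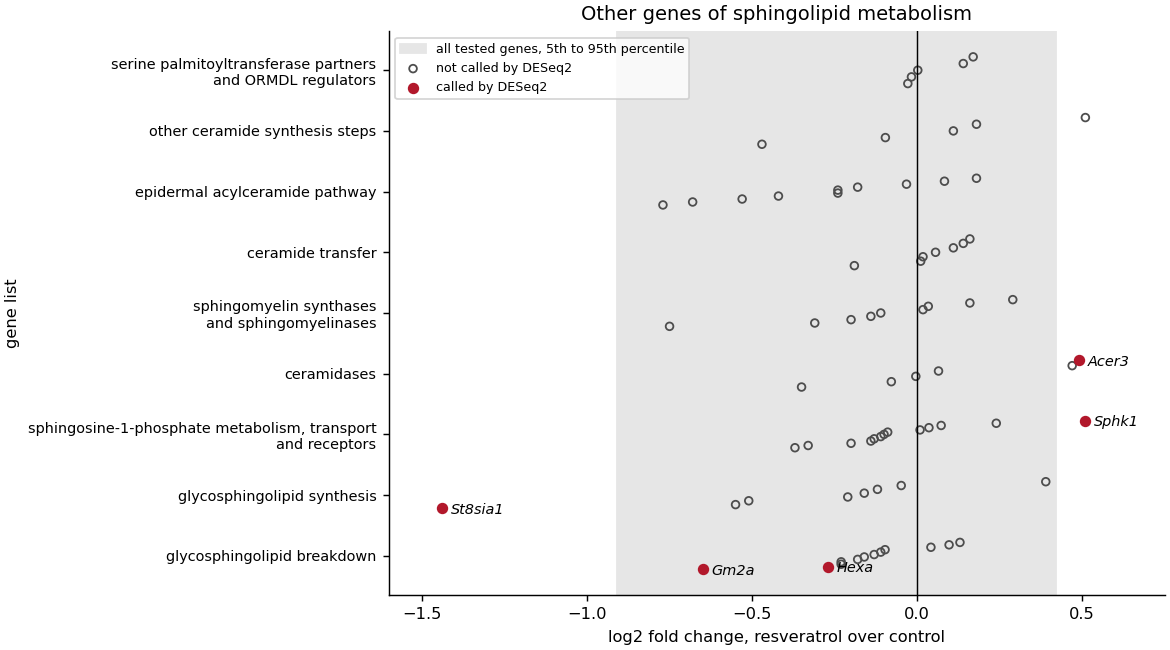
Log2 fold change, resveratrol over control, of 75 other tested sphingolipid genes in 9 lists, with the 5th to 95th percentile of all tested genes (-0.91 to 0.42) as a band. Filled red points are the 5 genes that DESeq2 called, Sphk1 (0.51) and Acer3 (0.49) to the right and St8sia1 (-1.44), Gm2a (-0.65) and Hexa (-0.27) to the left, and open points are the other genes.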

How the data were processed

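Corneal RNA was sequenced as paired-end reads, per the labels' protocols. The authors deposited raw counts per gene, which are whole numbers, and FPKM for the same 17771 genes. The submitters' processing notes name mRatBN7.2, R 3.2.0 and DESeq2. Aligner, counter, annotation and strand setting: not given in the sources used here. One separator is missing in the count table's header, so columns were assigned by library name and checked against FPKM. The SD over genes of the log2 count to FPKM ratio, relative to another library, was at most 2.86e-10 for the assigned column and at least 0.207 for any other. Depth was 35068936 to 37460756 counts per library, and genes with few counts are the least precise. No pair of libraries agreed within sampling noise (chi-square over degrees of freedom 32.7 to 96.5).

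filterByExpr at its defaults left 14213 genes. TMM factors, glmQLFit and glmQLFTest of edgeR 4.0.16 under R 4.3.3 gave the tests, without covariates, adjusted by Benjamini-Hochberg over all genes with a threshold of 0.05. Moderated standard errors are those of limma 3.58.1 on log2 CPM (prior count 2), and the 95% intervals stand around edgeR's fold change. DESeq2 1.42.0 was an alternative. The code was tested on simulated data. Of 67 genes changed 1.5-fold there, edgeR recovered 11.9% and DESeq2 38.8%. Among the calls, 36 of 178 in DESeq2 and 5 of 121 in edgeR were unchanged genes. DESeq2 calls are therefore to be read with caution, although these shares need not hold in the real data. Further alternatives were other scaling factors and filters, limma voom, log2(FPKM + 1) and log2(FPKM + 0.1), a replicate block, the month-like ending as covariate, the Oct libraries alone, and leaving out each library. DESeq2 without each library was added after the data were seen. The genes and lists were chosen with earlier results of these data known. From each further list the text names the 2 most counted genes, the 2 with the smallest edgeR p and any that passed. Some results that fall under this rule are not reported here.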

Additional observations from a re-analysis of the deposited data

How the results depend on the processing

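The count of genes called was 0 in edgeR under every other scaling factor and filter, in limma voom, on the FPKM scales and with the replicate block, the ending as covariate or the Oct libraries alone. DESeq2 called 1007 genes, 1 of the 10 synthesis genes (Cerk) and 5 of the other sphingolipid genes. Leaving out each library gave 0 to 21 genes in edgeR, with 21 without control 3 and 1 without resveratrol 2, and 390 to 1041 in DESeq2. It gave 0 of the 10 synthesis genes in edgeR and 1 in DESeq2 each time, and 0 of the other sphingolipid genes in edgeR and 2 to 4 in DESeq2. The log2 fold change of Cerk stayed between 0.52 and 0.65 over 23 alternatives, with an adjusted p of 0.0864 to 0.280 in edgeR and limma.

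Same-numbered libraries did not deviate together over all genes (correlations of 0.00, -0.01 and -0.02). These correlations rest on 3 libraries per group and cannot decide whether the libraries were paired. With the replicate block 0 genes were called, and the adjusted p of Cerk was 0.171.

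Small fold changes turned round. Degs1 was at 0.0024 on log2(FPKM + 1) and 0.0027 on log2(FPKM + 0.1), Ormdl3 at -0.021 with upper quartile factors and -0.0056 with at least 1 CPM in 3 libraries, and Sgms1 at -0.0058 with upper quartile factors and -0.071 in the Oct libraries alone. When each library was left out, Degs1 ranged from -0.066 to 0.078, Cers4 from -0.092 to 0.26, Ugcg from -0.15 to 0.042, Ormdl3 from -0.057 to 0.070, Sgms1 from -0.046 to 0.11, Elovl1 from -0.13 to 0.13 and Spns2 from -0.32 to 0.021. The cause was not tested. By CPM in place of FPKM the share of Cers6 was 6.24% in resveratrol and 8.25% in control. The pseudocount sets the value of genes of low FPKM: St8sia1 was at -0.087 on log2(FPKM + 1) and -0.56 on log2(FPKM + 0.1), against -1.44 in edgeR. Cers6 ranged from -0.40 to -0.17 and Sdr9c7 from -0.99 to -0.38 when each library was left out.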
